A study of Mus musculus with 8 samples.

Results

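SWI/SNF complexes are multi-subunit machines that use ATP to move and evict nucleosomes. The 10 subunits described here are Smarca4, Smarca2, Smarcb1, Smarcc1, Smarcc2, Smarcd1, Smarce1, Arid1a, Arid2 and Pbrm1. They are a named set, and all 10 were found, by gene identifier, among the 9307 genes of the deposited table. That Smarcc2 mRNA was lower with overexpression was known when the set was named.

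Ribosome-protected fragments (RPF), the stretches of mRNA shielded by ribosomes from nuclease, and matched input RNA were sequenced from mouse embryonic fibroblasts that carry the SV40 T antigen, which immortalizes them. OE cells were transduced with pBabe vectors, which are retroviral, for wild-type METTL1 and for WDR4. EV cells carried the empty vector. Each genotype had 2 input and 2 RPF libraries, which makes 4 groups and 8 libraries. The labels describe stable clones kept under puromycin at 2.5 ug/mL and G418 at 400 ug/mL, left out while the cells were expanded, and lysis after cycloheximide, which stalls ribosomes. They do not say that the libraries of a group came from separate cultures, so p-values measure the spread between libraries, which may be technical. If a genotype is 1 clone, a difference between clones and an effect of METTL1 and WDR4 cannot be told apart.

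The ATPase of a SWI/SNF complex is either Smarca4 (BRG1) or Smarca2 (BRM). Smarcc1 (BAF155) and Smarcc2 (BAF170) are paralogs that dimerize into the scaffold on which Smarcb1 (SNF5), Smarcd1 (BAF60A) and Smarce1 (BAF57) assemble. Arid1a marks the BAF form of the complex, and Arid2 and Pbrm1 (BAF180, a protein with bromodomains that bind acetylated histones) mark the PBAF form. METTL1 and its partner WDR4 methylate a guanosine of a subset of tRNAs, among them an arginine tRNA that reads AGA codons, and the design asks what more of this enzyme does to mRNA levels and to their translation.

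Reads summed over the listed genes were 294367 and 357305 in the OE input libraries and 365962 and 371520 in the EV input libraries. They were 864147 and 526699 in the OE RPF libraries and 707344 and 618526 in the EV RPF libraries. The median gene had 15 to 38 reads per library, so folds of low genes are imprecise. Values below are the authors' size-factor-normalized reads. Mettl1 input values were 33.7 and 16.0 in OE cells, against 16.7 and 14.0 in EV cells, and the groups overlapped. Wdr4 input values were 24.1 and 42.6 in OE cells, against 16.7 and 26.7 in EV cells. Neither gene passed the limma test for mRNA (adjusted p = 0.482 for Mettl1 and 0.454 for Wdr4), so the input levels give no check of the labels. In RPF libraries Mettl1 was at 40.1 and 22.4 in OE cells, against 25.7 and 25.6 in EV cells, which overlap. Wdr4 RPF values were 25.8 and 24.2 in OE cells, against 15.2 and 15.1 in EV cells, higher in both OE libraries (unadjusted p = 0.0414, limma adjusted p = 0.454). The labels do not state the species of the vectors' sequences. Fibroblast markers, 11 of 13 measured, summed to 6044 to 6280 in OE input and 5240 to 5456 in EV input, and the groups did not overlap. Neural markers, 3 of 5 measured (Tubb3, Map2 and Nes), summed to 89.9 to 94.5 in OE input and 73.2 to 81.5 in EV input, and to 93.4 to 96.0 in OE RPF and 73.0 to 81.8 in EV RPF. Adipocyte markers, 2 of 4 measured, summed to 6.66 to 8.03 in OE input and 8.91 to 8.98 in EV input. The leukocyte marker Csf1r, 1 of 5 measured, was at 6.42 to 9.32 in OE input and 2.55 to 5.13 in EV input. In RPF libraries Csf1r went the other way, at 2.74 and 0.898 in OE cells, against 6.59 and 4.52 in EV cells. Epithelial markers, 2 of 6 measured, overlapped between genotypes, at 9.32 to 12.9 in OE input and 7.70 to 12.7 in EV input. The endothelial and muscle markers, and Ptprc, Epcam, Sox2, Gfap and Adipoq, are not in the table. In bulk RNA, fewer cells of a type and less RNA per cell cannot be told apart.

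Taken as a sum, the 10 subunits had a smaller share of the reads in OE cells, although input values of Smarca4, Smarcb1 and Smarcc1 overlapped between genotypes. The 10 subunits together held 0.202% and 0.179% of input reads in OE cells, against 0.231% and 0.225% in EV cells. In RPF libraries they held 0.160% and 0.165% in OE cells, against 0.197% and 0.197% in EV cells. The OE and EV shares did not overlap in input or in RPF libraries. With Smarcc2 left out, the summed value of the other members was still lower in OE input (862 and 773) than in EV input (941 and 937). The same sum in RPF libraries was 688 and 687 in OE cells, against 790 and 811 in EV cells.

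For mRNA, 1 of the 10 subunits, Smarcc2, passed the limma test at an adjusted p under 0.05, and it was lower in OE cells. Of all genes in the table, 1.5% passed in either direction and 0.494% passed as lower. The mRNA log2 change, OE over EV, was below 0 for all 10 members, against 50.3% of all genes, but for 7 of 10 without OE input library 2, when Smarca4, Smarcb1 and Smarcc1 were above 0. The members' median log2 change was -0.26, and the median of all genes was -0.0038. Both OE input values lay below both EV input values for 7 members (Smarca2, Smarcc2, Smarcd1, Smarce1, Arid1a, Arid2 and Pbrm1), a pattern seen in 19.4% of all genes, and above for none, against 21.2%. An unadjusted p under 0.05 was found for 3 members (Smarca2, Smarcc2 and Pbrm1), all lower, against 6.53% of all genes as lower. Smarcc2 was known to be lower when the set was named, so its part in each of these counts was fixed beforehand. Without Smarcc2 no member passed, and only Smarca2 and Pbrm1 had an unadjusted p under 0.05. Of the 11 fibroblast markers, 7 had higher values in both OE input libraries than in both EV ones, and 1 (Col1a1) passed as higher. The neural sum was higher in OE input through Tubb3 (28.9 and 22.6, against 14.1 and 12.7 in EV input). Map2 and Nes overlapped. The adipocyte sum was lower through Fabp4 (3.21 and 2.66 in OE input, 6.42 and 6.37 in EV input). Lpl went the other way (4.82 and 3.99 in OE input, 2.57 and 2.55 in EV input). The part of these values in the subunits' levels was not tested.

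**Figure D1:**
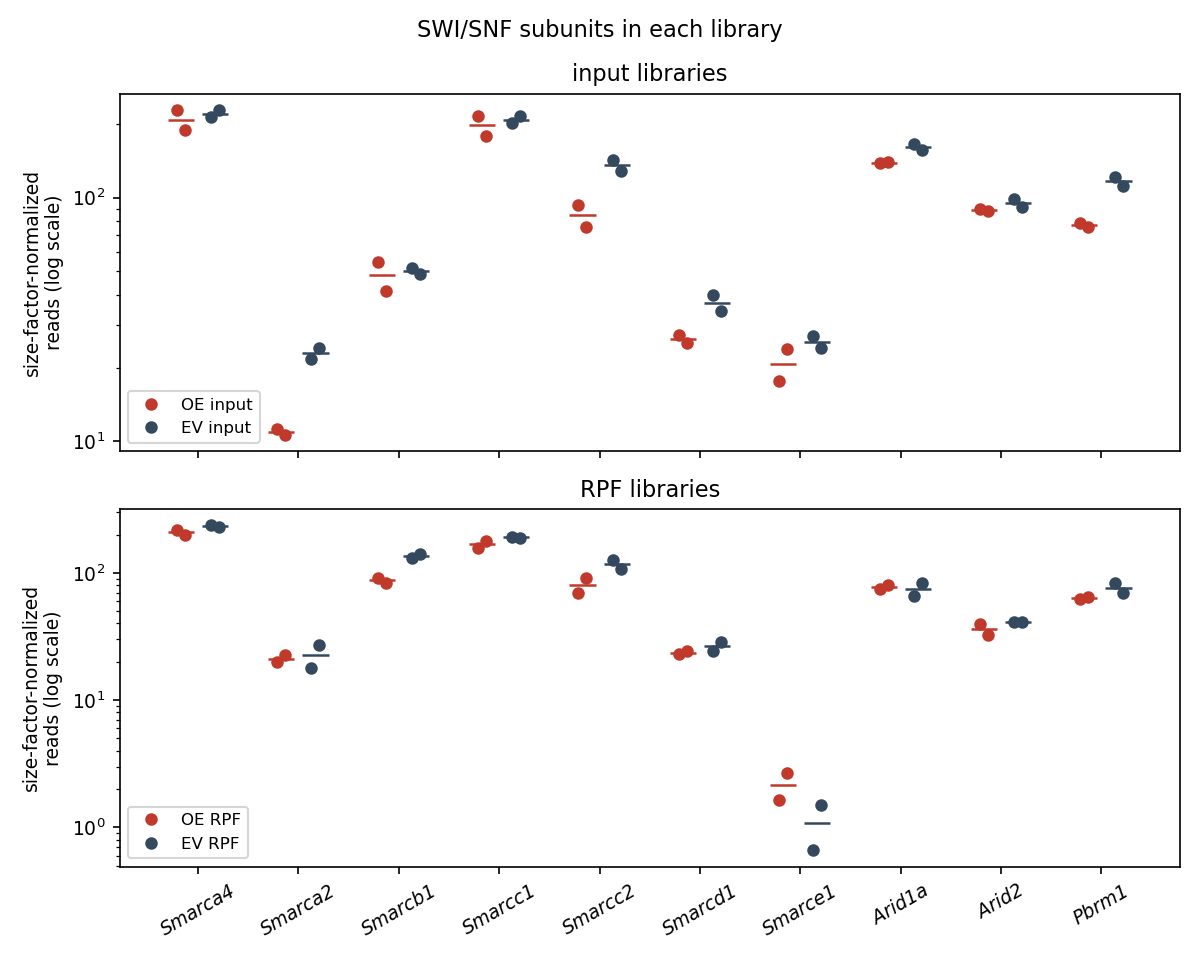
Size-factor-normalized reads (log axis) of the 10 subunits in each input library (top) and RPF library (bottom), with OE left of EV; points are libraries and bars are group means (n = 2). In the input panel Smarca2, Smarcc2 and Pbrm1 have both OE points clearly below both EV points, and Smarce1 has the lowest RPF values.

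Of the ATPases, neither passed for mRNA, and the lower fold was that of Smarca2. Smarca4 input values were 228 and 189 in OE cells, against 213 and 229 in EV cells, and these overlapped. Its mRNA log2 change was -0.09 (SE 0.12, 95% interval -0.34 to 0.16, limma adjusted p = 0.807). Smarca2, the alternative ATPase and the least abundant member per length, had input values of 11.2 and 10.7 in OE cells, against 21.8 and 24.2 in EV cells. These did not overlap, and the fold was 0.498 (log2 -1.01, SE 0.33, 95% interval -1.68 to -0.33). The unadjusted p was 0.00509 and the limma adjusted p was 0.132, so Smarca2 did not pass. Its level rests on 15 reads in the pooled OE input libraries, against 36 in the pooled EV input libraries, a ratio with an exact 95% interval of 0.241 to 0.888. Intervals from reads cover counting error only, not the spread between libraries. The sources describe no molecular identifiers, so duplicate reads may make these intervals too narrow.

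The footprints of Smarca2 overlapped between genotypes. RPF values were 19.8 and 22.4 in OE cells, against 17.8 and 27.1 in EV cells, and the RPF log2 change was -0.06 (95% interval -0.74 to 0.62). The change in translational efficiency (TE), which is the RPF log2 change minus the mRNA log2 change, was 0.95 (SE 0.47, 95% interval -0.01 to 1.91, limma adjusted p = 0.899). Smarca4 RPF values were 218 and 198 in OE cells, against 236 and 229 in EV cells, without overlap, and its RPF log2 change of -0.16 did not pass (limma adjusted p = 0.729).

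Smarcc2, one of the scaffold paralogs, fell. Its input values were 93.1 and 75.9 in OE cells, against 142 and 129 in EV cells, with means of 84.5 ± 12.2 in OE cells and 136 ± 9.8 in EV cells (SD, n = 2 each). The groups did not overlap, and the level in OE cells was 0.624 of that in EV cells (log2 -0.68, SE 0.17, 95% interval -1.03 to -0.34, limma adjusted p = 0.0349). Pooled over libraries, 115 OE reads stood against 212 EV reads, with an exact 95% interval of 0.488 to 0.779 for the scaled ratio. The call was lost with DESeq2 (adjusted p = 0.577), with limma voom (adjusted p = 0.089), with the 4 input libraries alone in limma (adjusted p = 0.0605), and without any 1 of EV input 1, EV input 2, OE input 2, EV RPF 1 or EV RPF 2 (limma adjusted p from 0.0676 to 0.214). It held with edgeR (adjusted p = 0.04999), and the log2 change without any 1 library lay between -0.83 and -0.53.

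Footprint values of Smarcc2 were lower too, without passing with limma. RPF values were 69.7 and 91.6 in OE cells, against 127 and 107 in EV cells, and did not overlap. The RPF log2 change was -0.54 (SE 0.17, 95% interval -0.89 to -0.19); its adjusted p was 0.158 with limma, 0.0171 with edgeR and 0.0136 with limma voom. The TE change was 0.14 (95% interval -0.35 to 0.63, limma adjusted p = 0.973), so a change in ribosomes per mRNA was not detectable at this depth.

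Smarcc1, the other scaffold paralog, had input values of 217 and 180 in OE cells, against 202 and 217 in EV cells, which overlap (log2 -0.08, SE 0.13, limma adjusted p = 0.832). Its RPF values were 156 and 179 in OE cells, against 192 and 188 in EV cells, which do not overlap (log2 -0.18, limma adjusted p = 0.695). Among the reads of both paralogs in input libraries, Smarcc2 therefore made up 30.1% (Wilson 95% interval 24.0 to 36.9%) and 29.7% (23.7 to 36.5%) in OE cells. In EV input it made up 41.4% (35.7 to 47.4%) and 37.3% (31.7 to 43.2%). The shares did not overlap between genotypes, although their counting intervals do. They rest on the Smarcc2 input reads already known to be lower when the set was named, so they add no separate evidence. In RPF libraries the Smarcc2 share was 30.8% and 33.9% in OE cells, against 39.9% and 36.2% in EV cells. The paralogs share no 28-base stretch in their annotated transcripts.

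**Figure D2:**
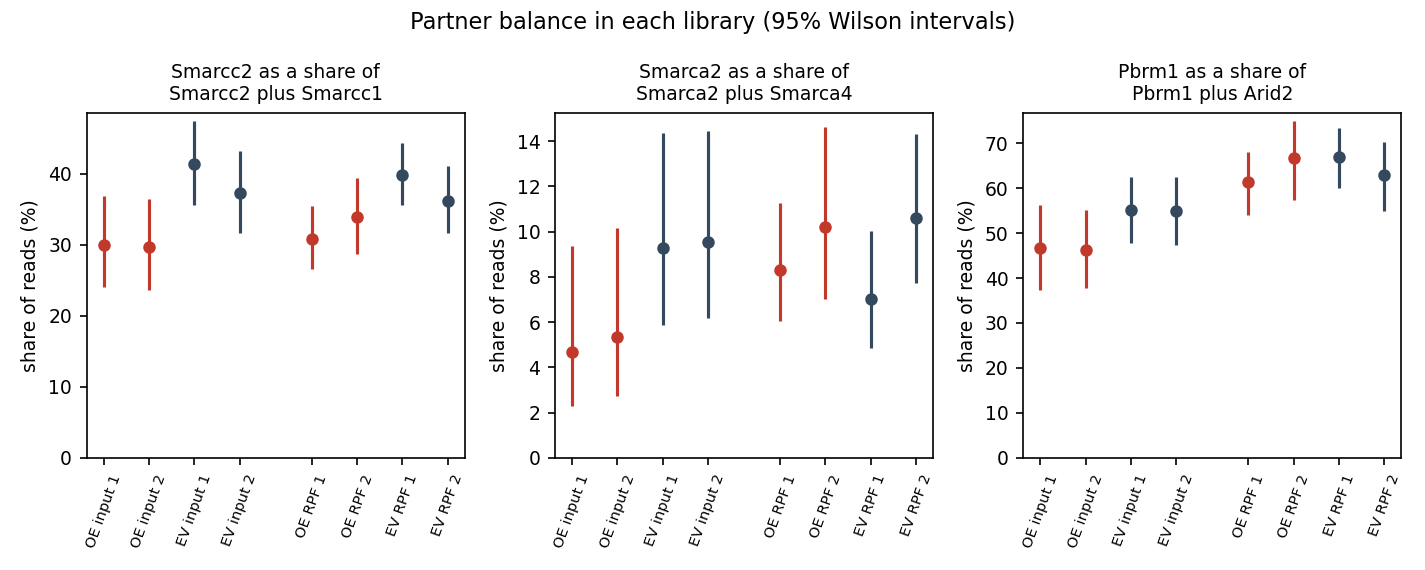
Share of reads (percent, from 0) taken by Smarcc2 of Smarcc2 plus Smarcc1, by Smarca2 of Smarca2 plus Smarca4, and by Pbrm1 of Pbrm1 plus Arid2 in each library, with OE left of EV; bars are Wilson 95% intervals. The Smarcc2 share is near 30% in both OE input libraries and 37.3% or more in both EV input libraries. It rests on Smarcc2 input reads that were known to be lower when the set was named.

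The same balance was taken for the ATPases. Smarca2 held 4.70% and 5.33% of the ATPase reads in OE input, against 9.29% and 9.55% in EV input, with wide intervals (2.29 to 9.38% in OE input 1 and 5.88 to 14.4% in EV input 1). In RPF libraries the shares overlapped, at 8.30% and 10.2% in OE cells, against 7.01% and 10.6% in EV cells.

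Smarcb1, the core subunit lost in human rhabdoid tumours, had lower footprint values in OE cells that did not pass with limma, and overlapping mRNA values. Its input values were 54.6 and 41.3 in OE cells, against 51.3 and 48.4 in EV cells, with overlap (log2 -0.07, SE 0.18, limma adjusted p = 0.913). RPF values were 91.6 and 83.5 in OE cells, against 130 and 142 in EV cells, without overlap. The RPF log2 change was -0.63 (SE 0.18, 95% interval -0.998 to -0.26), which did not pass (limma adjusted p = 0.112). It passed with edgeR (adjusted p = 0.00343), with limma voom (adjusted p = 0.00352) and with the 4 RPF libraries alone in limma (adjusted p = 0.0139). The TE change of Smarcb1 was -0.56 (95% interval -1.08 to -0.03; unadjusted p = 0.0383, limma adjusted p = 0.899).

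Smarcd1, an adaptor that links transcription factors to the complex, had input values of 27.3 and 25.3 in OE cells, against 39.8 and 34.4 in EV cells. The groups did not overlap, and the mRNA log2 change was -0.48 (SE 0.27, limma adjusted p = 0.453). Its RPF values were 23.0 and 24.2 in OE cells, against 24.4 and 28.6 in EV cells (log2 -0.15, limma adjusted p = 0.893). Of its annotated exon bases, 12.7% overlap genes on the other strand, and whether the authors' counts use strand is not given in the sources used here. Smarce1, which has a DNA-binding HMG box, had input values of 17.7 and 24.0 in OE cells, against 27.0 and 24.2 in EV cells (log2 -0.30, SE 0.47, limma adjusted p = 0.831).

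Arid1a, the subunit of BAF that binds DNA through its ARID domain, had input values of 138 and 140 in OE cells, against 166 and 157 in EV cells. The groups did not overlap, but the mRNA log2 change of -0.21 did not pass (SE 0.16, limma adjusted p = 0.601). Its RPF values overlapped, at 74.6 and 80.8 in OE cells, against 65.3 and 83.6 in EV cells (log2 0.07, limma adjusted p = 0.924).

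Both PBAF subunits of the set, Pbrm1 and Arid2, had lower values in OE input without passing the test, Pbrm1 by more. Of PBAF subunits outside the set, Phf10 was higher in both OE input libraries (log2 0.31). Brd7 overlapped between genotypes (log2 -0.35). Pbrm1 input values were 78.7 and 75.9 in OE cells, against 122 and 112 in EV cells, without overlap. The fold was 0.664 (log2 -0.59, SE 0.17, 95% interval -0.94 to -0.25, unadjusted p = 0.00152, limma adjusted p = 0.0721), just outside the threshold. Its RPF values were 62.6 and 64.7 in OE cells, against 83.1 and 70.01 in EV cells, without overlap (log2 -0.26, 95% interval -0.60 to 0.09, limma adjusted p = 0.656). Arid2 input values were 89.9 and 87.9 in OE cells, against 98.8 and 91.7 in EV cells, and its mRNA log2 change was -0.10 (SE 0.19, limma adjusted p = 0.869). Arid2 RPF values were 39.5 and 32.3 in OE cells, against 40.9 and 41.4 in EV cells (log2 -0.20, limma adjusted p = 0.804). Pbrm1 held 46.7% and 46.3% of the reads of the pair in OE input, against 55.2% and 55.0% in EV input. This pair was added after the values were seen, and in RPF libraries its shares overlapped, at 61.3% and 66.7% in OE cells, against 67.0% and 62.8% in EV cells.

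**Figure D3:**
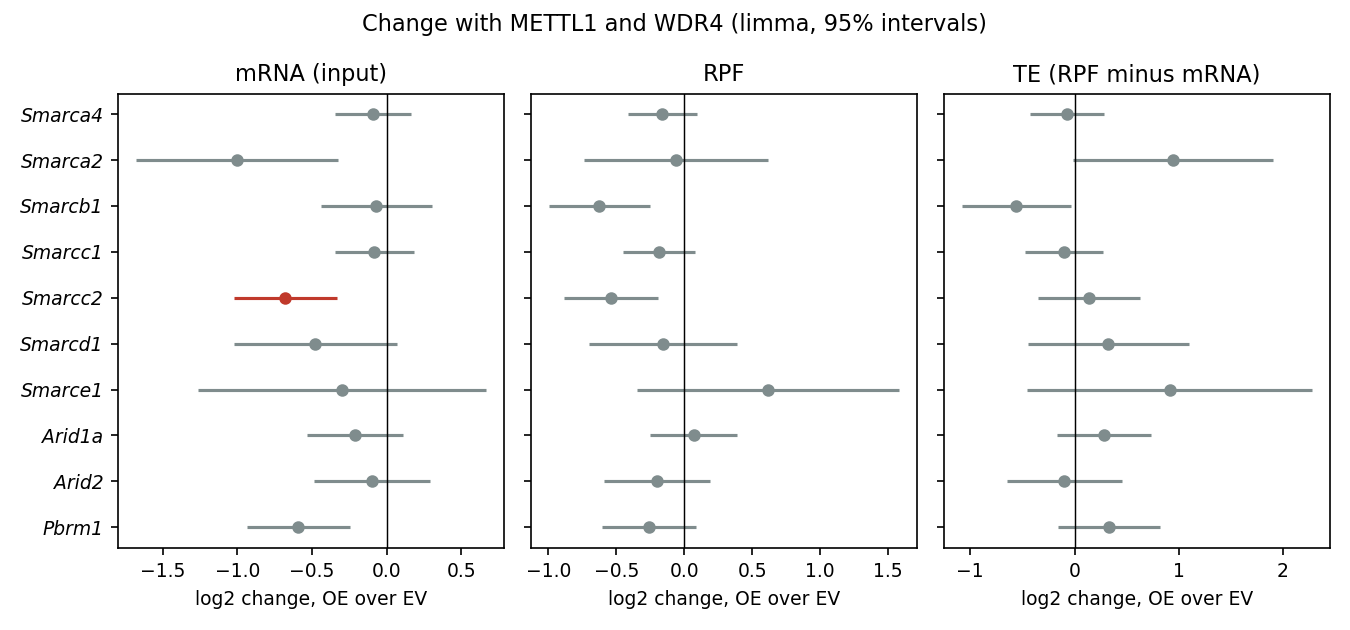
Log2 change, OE over EV, of each subunit in mRNA, RPF and TE from limma, with 95% intervals; the point that passed an adjusted p of 0.05 is red. Only the Smarcc2 mRNA change (-0.68) is red, and all 10 mRNA points lie left of 0.

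For RPF, none of the 10 subunits passed with limma, against 0.956% of all genes in either direction. Of the members, 2 (Smarcb1 and Smarcc2) had an unadjusted p under 0.05, both lower, against 4.77% of all genes as lower. With the other tools, edgeR passed 2 members (3.23% of all genes), limma voom 2 (3.43% of all genes) and DESeq2 0 (0.269% of all genes). The RPF log2 change was below 0 for 8 members, against 50.2% of all genes, and the median was -0.17. Both OE RPF values lay below both EV values for 7 members, against 22.2% of all genes, and above them for 1, Smarce1, against 21.9% of all genes.

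For TE, 0 of the 10 passed with limma, and 0% of all genes passed; 1 member had an unadjusted p under 0.05, Smarcb1, with a lower TE, against 2.46% of all genes as lower and 5.46% in either direction. None of the other tools passed a member for TE. The members' TE log2 changes were below 0 for 4 and above 0 for 6, against 50.7% of all genes below 0, with a median of 0.21. In the authors' deposited table the TE log2 fold change of the members ran from -0.56 for Smarcb1 (unadjusted p = 0.155) to 1.26 for Smarce1 (unadjusted p = 0.320), and it was 0.13 for Smarcc2 (unadjusted p = 0.701).

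Per kilobase of the annotated transcript, Smarcc2 mRNA held a different place in the order in OE and EV cells. This restates its lower OE input values, which were known when the set was named, and is no separate result. The levels in OE input were 34.7 ± 4.6 for Smarcc1, 32.7 ± 4.3 for Smarca4 and 28.9 ± 5.7 for Smarcb1, which overlap, and then 21.0 ± 3.0 for Smarcc2 (SD, n = 2 each). Next in OE input came Arid1a at 16.97 ± 0.15, Pbrm1 at 11.8 ± 0.30, Arid2 at 10.4 ± 0.17 and Smarcd1 at 7.95 ± 0.43. Smarce1 at 7.13 ± 1.5 overlapped Smarcd1, and Smarca2 was last at 1.87 ± 0.071. In EV input, Smarcc2 stood among the leading members at 33.6 ± 2.4, overlapping Smarcc1 at 36.6 ± 1.9 and Smarca4 at 34.7 ± 1.8 and above Smarcb1 at 30.04 ± 1.3. Below them in EV input came Arid1a at 19.7 ± 0.77, Pbrm1 at 17.8 ± 1.1, Smarcd1 and Arid2, both at 11.2 and overlapping, Smarce1 at 8.76 ± 0.67 and Smarca2 at 3.92 ± 0.29. These levels use 1 annotated transcript per gene, so an isoform of another length would move them. Of the 28-base stretches of the whole transcript, 62.1% are unique in Smarce1 and 88.2% in Smarcd1. The part of this in their levels was not tested.

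RPF values were not spread over the members in proportion to their input values. The occupancy of a gene is its RPF over its input value, averaged over OE and EV cells on the log2 scale, where 0 is near the typical gene. It is not corrected for length, although footprints come from the coding sequence and input reads from the whole transcript. The coding sequence is 1233 of 2919 bases in Smarce1 and 3639 of 4032 in Smarcc2. The part of this in the order of the members was not tested. By limma 5 of the 10 members passed, 1 higher and 4 lower, close in share to the 51% of all genes that passed (25.6% higher and 25.4% lower). Occupancy was below 0 on the log2 scale for 7 members, against 48.6% of all genes. The RPF level of Smarcb1 was 2.21 times its input level (log2 1.15, SE 0.13, limma adjusted p = 1.54e-08). Lower values were found for Pbrm1 at 0.735 (limma adjusted p = 0.00262), Arid1a at 0.51 (limma adjusted p = 2.1e-08) and Arid2 at 0.423 (limma adjusted p = 9.16e-09). The ATPases and both Smarcc paralogs did not pass, with occupancy log2 values of 0.04 for Smarca4, 0.41 for Smarca2, -0.19 for Smarcc1 and -0.14 for Smarcc2.

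Within each genotype, pooled reads gave Smarcb1 an occupancy ratio of 1.87 (exact 95% interval 1.42 to 2.50) in OE cells, against 2.71 (2.12 to 3.51) in EV cells. The ratio of Smarca2 was 1.90 (1.07 to 3.60) in OE cells, against 0.962 (0.629 to 1.49) in EV cells. For Arid1a the ratio was 0.554 in OE cells and 0.458 in EV cells, and for Arid2 it was 0.414 in OE cells and 0.432 in EV cells. The intervals of OE and EV cells overlapped for each of these genes.

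Smarce1 had the lowest occupancy of the set (log2 -3.25, SE 0.33, limma adjusted p = 3.17e-09), in the lowest 1% of all genes at a percentile of 0.989. It had 3 and 3 RPF reads in OE cells, against 1 and 2 in EV cells, so its RPF change has a counting interval of 0.414 to 11.98 around a ratio of 1.94. In its annotated coding sequence 9.37% of 28-base stretches occur in no other annotated gene, against 100% of those after the stop codon and 100% of the coding sequence of Smarcc2. Of its 28-base stretches, 892 also occur in Gm8494, 709 in the pseudogene Smarce1-ps1 and 676 in Gm4811. How the authors counted reads with several matches is not given in the sources used here, and the part of this in the low footprint count was not tested. A coding stretch that also lies in 5 other genes (coding bases 549 to 576) and one found in Smarce1 alone (bases 1 to 28) show the contrast, in GENCODE sequence of build GRCm38.

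Smarce1 shared: tgatggcttttcaatgaagcacacagcc

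Smarce1 unique: atgtcaaaaagaccatcttatgccccac

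The other members were less affected, with 84.5% of coding stretches unique in Smarcd1, 88.2% in Smarcc1 and 96.3% or more in each of the rest.

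**Figure D4:**
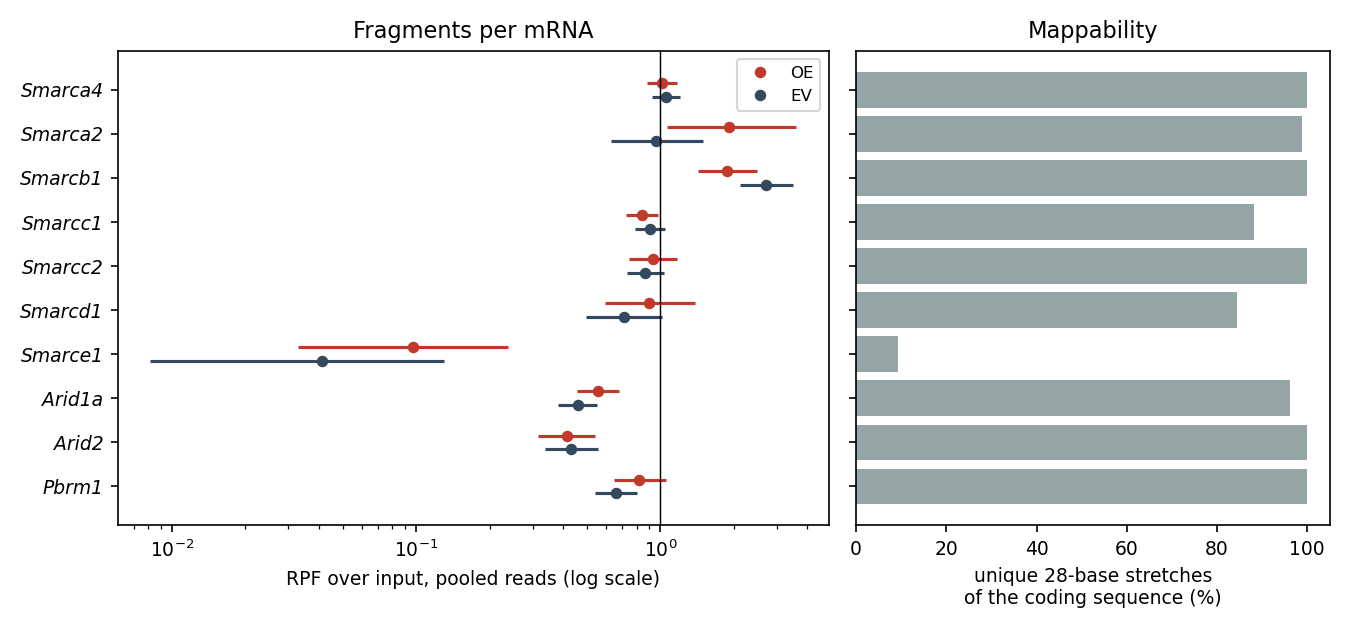
Left, RPF over input of pooled size-factor-scaled reads (log axis) for each subunit in OE (upper point) and EV cells (lower point), with exact 95% intervals; right, percent of 28-base stretches of the coding sequence found in no other gene. Smarcb1 lies above 1, Arid1a and Arid2 near 0.5 or below, and Smarce1 under 0.1 in both genotypes, where 9.37% of stretches are unique.

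The use of AGA codons was compared across the members because the arginine tRNA that reads them is a METTL1 substrate. AGA codons per 1000 numbered 3.30 in Smarcc2, at percentile 14.5 of 9276 genes, and 3.94 in Arid1a, 4.95 in Smarca4, 5.20 in Smarcb1 and 5.83 in Smarcd1. They numbered 9.99 in Smarca2, 10.9 in Arid2, 12.2 in Smarce1, 12.7 in Smarcc1 and 18.2 in Pbrm1, at percentile 78.4, and the median gene had 10.6. Smarcc2 and Pbrm1, which stand at the ends of this range, had mRNA log2 changes of -0.68 and -0.59. Their TE log2 changes were 0.14 (95% interval -0.35 to 0.63) and 0.33 (-0.15 to 0.82). A link between AGA codons and the changes of the members was not tested. The 20-codon window with the most AGA codons, or the first such window where several tie, is shown for Smarcc2 and Pbrm1, with AGA in capitals. It covers codons 143 to 162 of Smarcc2 and 1 to 20 of Pbrm1, and holds 1 AGA codon in Smarcc2 and 3 in Pbrm1. The Smarcc1 window, codons 296 to 315 with 3 AGA codons, is given beside that of its paralog.

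Smarcc2: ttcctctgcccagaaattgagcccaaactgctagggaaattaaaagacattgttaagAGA

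Smarcc1: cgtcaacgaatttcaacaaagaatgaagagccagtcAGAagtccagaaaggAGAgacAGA

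Pbrm1: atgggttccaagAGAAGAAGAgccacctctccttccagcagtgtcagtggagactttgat

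Promoter windows of 300 bases (250 before to 50 after the start, RefSeq, build GRCm38.p6) were given for 8 of the 10 members, with 2 for Arid1a. Searched on both strands, GGGCGG, the core of a GC box, was found in all 9 windows, against 66.7% of 9542 windows of genes in the table. CCAAT was in 0 of the 9, against 37.8% of those windows, and TATAAA in 0, against 6.42%. CCGGAAG, an ETS core, was in 2 (Smarcc1 and Smarca2), against 19.3%, and CACGTG, an E-box, in 1 (Pbrm1), against 10.4%. Their GC content was 60.7 to 81.0%, against a median of 61.7%, and these matches are descriptions of the windows only. The windows of Smarcc2, of its paralog Smarcc1, and of Pbrm1, the member nearest to Smarcc2 in pattern, are shown with matches to these motifs in capitals. They lie at chr10:128458986-128459285, chr9:110131774-110132073 and chr14:31018888-31019187, all on the plus strand.

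Smarcc2: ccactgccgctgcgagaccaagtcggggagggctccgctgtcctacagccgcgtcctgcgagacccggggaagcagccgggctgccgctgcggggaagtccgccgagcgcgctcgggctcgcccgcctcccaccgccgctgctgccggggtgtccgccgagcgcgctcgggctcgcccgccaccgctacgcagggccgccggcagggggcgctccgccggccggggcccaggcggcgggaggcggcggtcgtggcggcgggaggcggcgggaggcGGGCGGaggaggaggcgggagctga

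Smarcc1: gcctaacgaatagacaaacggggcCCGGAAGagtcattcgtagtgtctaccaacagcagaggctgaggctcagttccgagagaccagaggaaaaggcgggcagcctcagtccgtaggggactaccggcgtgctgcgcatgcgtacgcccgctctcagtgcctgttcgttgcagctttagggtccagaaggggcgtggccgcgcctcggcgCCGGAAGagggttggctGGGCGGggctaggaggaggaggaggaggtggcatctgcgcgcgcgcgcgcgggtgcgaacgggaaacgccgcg

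Pbrm1: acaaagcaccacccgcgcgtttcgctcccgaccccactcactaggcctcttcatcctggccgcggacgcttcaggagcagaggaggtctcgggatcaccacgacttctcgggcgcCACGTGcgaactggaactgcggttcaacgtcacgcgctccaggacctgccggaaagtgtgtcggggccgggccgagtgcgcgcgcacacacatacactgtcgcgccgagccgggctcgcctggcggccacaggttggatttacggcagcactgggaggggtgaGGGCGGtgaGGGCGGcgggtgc

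The Smarcc2 gene itself spans chr10:128459248-128490482 (plus strand, GENCODE, GRCm38), with a coding sequence of 3639 bases, and Pbrm1 spans chr14:31019138-31121592 (plus strand) with 5112 coding bases. None of the Smarcc2 exon bases overlaps another annotated gene.

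Likeness to Smarcc2 was measured over the 8 libraries as the mean absolute difference of log2 values, each gene centred within input and within RPF, among 5113 genes with a mean value of at least 20. The 5 nearest genes were Emilin1 (0.058), Mtmr12 (0.084), Cdca3 (0.085), Arl6ip5 (0.096) and Gcc2 (0.099). Arl6ip5, for example, had input values of 27.3 and 29.3 in OE cells, against 55.2 and 48.4 in EV cells; these genes were picked for a pattern like that of Smarcc2, so their values are a description. Among the members, Pbrm1 ranked 23 (0.119) and Smarcd1 ranked 108 (0.158), and Smarcc1 ranked 737.

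The other measured SWI/SNF subunits, 17 in all, were split in direction. Their mRNA log2 changes were below 0 for 8 and above 0 for 9, with a median of 0.09, and none passed with limma. Both OE input values lay above both EV values for 5, against 21.2% of all genes, and below for 1, against 19.4%. The 3 with the smallest p were Actb, Ss18 and Phf10, all with positive log2 changes. Actb, the beta-actin that is also a subunit, had input values of 2810 and 2589 in OE cells, against 2282 and 2326 in EV cells (log2 0.23, SE 0.06, limma adjusted p = 0.0514). It passed with limma at a pseudocount of 5 (adjusted p = 0.046), at a minimum mean value of 10 (0.0298), with the replicate block (0.0368), with limma voom (0.026), and without OE input 2, OE RPF 1 or OE RPF 2 (0.0295 to 0.044). Of the Actb transcript, 60.1% of 28-base stretches are unique. Ss18 (log2 0.47, SE 0.29) and Phf10 of PBAF (log2 0.31, SE 0.21) did not pass either. Of their coding 28-base stretches, 46.2% are unique in Ss18 and 82.2% in Phf10. For RPF none of the 17 passed with limma. An unadjusted p under 0.05 was found for 2 as higher (Bicral and Actb), against 5.47% of all genes, and for 2 as lower (Arid1b and Brd9), against 4.77%, and the median was 0.08. Bicral had RPF values of 5.49 and 5.39 in OE cells, against 3.30 and 0.753 in EV cells (log2 1.23, SE 0.48, limma adjusted p = 0.316). These rest on 10 and 6 reads in OE cells, against 5 and 1 in EV cells, and 76.65% of its coding stretches are unique. Arid1b, the paralog of Arid1a, had RPF values of 31.8 and 32.3 in OE cells, against 48.8 and 48.9 in EV cells (log2 -0.59, SE 0.19, limma adjusted p = 0.179).

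In occupancy, 10 of these 17 passed with limma, near the 51% of all genes that passed. Actb, Actl6a and Dpf2 were higher in RPF than in input. The 7 lower ones were Arid1b, Dpf1, Phf10, Brd7, Bcl7c, Bicra and Bicral, with Arid1b at -1.23 on the log2 scale, beside -0.97 for its paralog Arid1a. The calls of Dpf1 (adjusted p = 0.128) and Brd7 (adjusted p = 0.146) were lost with DESeq2. Without 1 library they were also lost, for Dpf1 without OE RPF 1 (limma adjusted p = 0.0581) and for Brd7 without EV input 1, OE input 2, EV RPF 1 or OE RPF 2 (limma adjusted p from 0.113 to 0.268).

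Other remodeler families gave a few named values to set beside the members. Median mRNA log2 changes were -0.09 for 13 NuRD genes, -0.16 for 10 ISWI genes, 0.02 for 22 genes of INO80, SRCAP and TIP60-p400, and -0.16 for 17 other SNF2 helicases. Of these genes only Hdac2, a histone deacetylase of NuRD, passed with limma, as lower, against 0.494% of all genes. Its input values were 83.5 and 94.5 in OE cells, against 139 and 146 in EV cells, without overlap (log2 -0.68, SE 0.16, limma adjusted p = 0.0311). The call was lost with edgeR (adjusted p = 0.0629), limma voom (0.128) and DESeq2 (0.577), and without EV input 1, EV input 2, OE input 1, EV RPF 1 or EV RPF 2 (limma adjusted p from 0.0626 to 0.198). The RPF log2 change of Hdac2 was -0.24 (limma adjusted p = 0.681). The difference between the members and any of these lists was not tested.

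**Figure D5:**
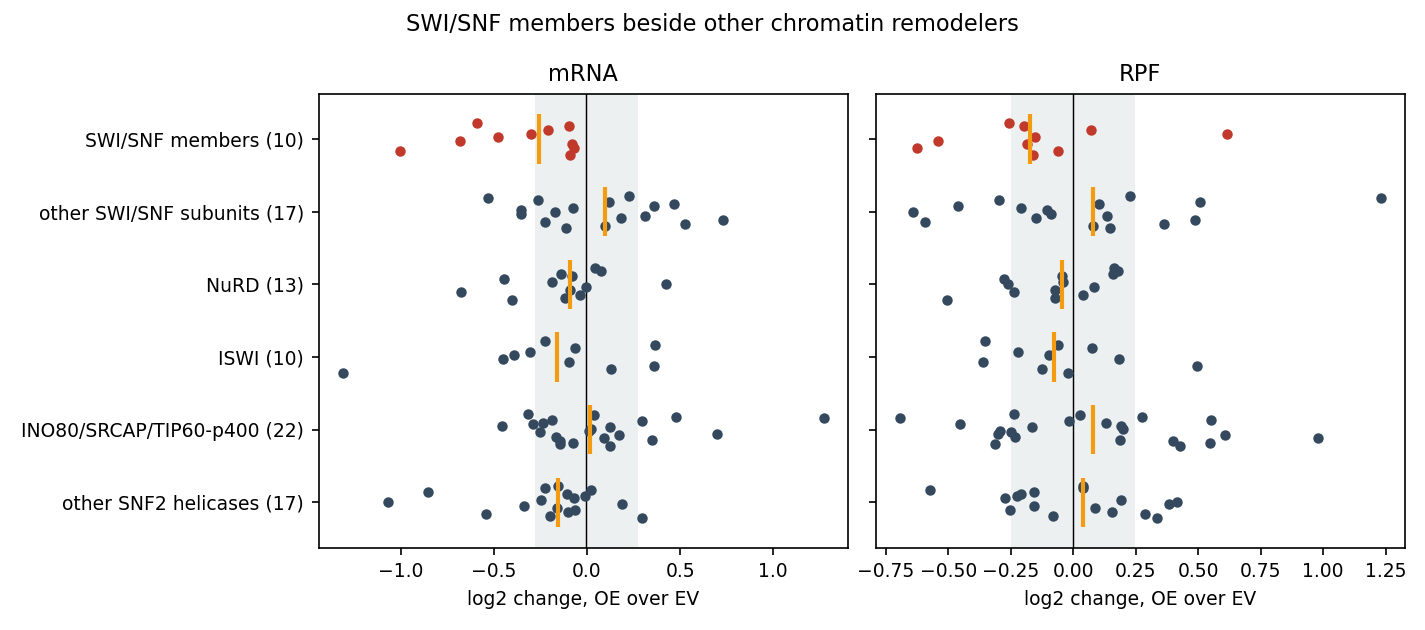
Log2 change, OE over EV, in mRNA and RPF for the 10 SWI/SNF members (red) and 5 other lists of remodeler genes (dark), 1 point per gene, with list medians as orange bars and the range between the quartiles of all genes shaded. The members' medians are -0.26 for mRNA and -0.17 for RPF, and the medians of the other SWI/SNF subunits are 0.09 and 0.08.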

How the data were processed

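The authors deposited 1 size-factor-normalized signal value per gene and library, with a log2 fold change of translational efficiency and its unadjusted p-value. Bowtie and mouse build mm10 are named in the submitters' processing notes; the sources used here do not give the counting program, its strand setting or the annotation. All values were whole multiples of 1 read within 1e-06, so whole reads were recovered for 100% of them. Only genes with a read in all 8 libraries are listed. Identifiers were matched to GENCODE mouse symbols (9306 of 9307 without version).

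The main test was limma 3.58.1 (R 4.3.3) fitted to log2(value + 1) over the 8 libraries together, with the trend option, no covariate, a floor of 1 on the mean value and Benjamini-Hochberg adjustment over 9307 genes; p-values are two-sided with a threshold of 0.05. Such fold changes understate those of low genes. Alternatives were pseudocounts of 0.5 and 5, filters, TMM, edgeR 4.0.16, DESeq2 1.42.0, limma voom, fewer libraries and a replicate block. Named genes were the members, the 3 other subunits with the smallest mRNA p, any listed remodeler that passed and the 5 genes most like Smarcc2; other genes were chosen after their values were seen. The members and lists were chosen with earlier results of these data known, so the Smarcc2 change is not independent evidence.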

Additional observations from a re-analysis of the deposited data

How the results depend on the processing

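The mRNA call of Smarcc2 (log2 -0.68) kept its direction under every alternative run and was lost with the 4 input libraries alone (-0.68), with DESeq2 (-0.69) and with limma voom (-0.71); without 1 library its change was -0.83 to -0.53. Genes passing for mRNA numbered 140, against 47 with the 4 input libraries alone, 57 with edgeR, 15 with DESeq2 and 49 with voom, and 50 to 156 without 1 library. Members passing numbered 1, against 0 with the 4 libraries alone, 0 with DESeq2 and 0 with voom, and 0 to 1 without 1 library. Genes passing for RPF numbered 89, against 162 with the 4 RPF libraries alone, 301 with edgeR, 25 with DESeq2 and 319 with voom, and 16 to 100 without 1 library. Members passing for RPF numbered 0, against 1 with the 4 libraries alone, 2 with edgeR and 2 with voom. For TE 0 genes passed, against 1 with edgeR and 0 to 5 without 1 library. Signs turned only when 1 library was left out: for mRNA Smarca4 (-0.22 to 0.045), Smarcb1 (-0.27 to 0.13) and Smarcc1 (-0.22 to 0.053), for RPF Smarca2 (-0.35 to 0.23) and Arid1a (-0.10 to 0.25), for TE Smarca4 (-0.21 to 0.063), Smarcc1 (-0.24 to 0.032), Smarcc2 (-0.054 to 0.34) and Arid2 (-0.24 to 0.041), and for occupancy Smarca4 (-0.031 to 0.10). The cause was not tested. Deviations of same-numbered libraries correlated at 0.018 between OE and EV input and 0.053 between OE and EV RPF. Between RPF and input they correlated at -0.0076 in EV cells and -0.072 in OE cells. Counting error at this depth lowers such correlations, so they do not decide whether same-numbered libraries are paired. With the replicate block, fitted separately within input and within RPF, 152 genes passed for mRNA, 107 for RPF and 0 for TE. Smarcc2 kept its mRNA call with this block at a limma adjusted p of 0.0322. Depth limits Smarce1 RPF and Smarca2 mRNA most, at 3 or fewer and 8 or fewer reads per OE library.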
